A study of Mus musculus with 2 samples.

Results

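The spectrins, ankyrins and adducins of the membrane skeleton were followed in active ribosome profiling of mouse brain. The genes are the alpha spectrin Sptan1, the beta spectrin Sptbn1, the ankyrins Ank2 and Ank3, and the adducins Add1, Add2 and Add3, 7 of the 45578 genes in the deposited table. They were chosen by symbol, not by a measured value, and all 7 were found, each under 1 gene identifier. The material was brain of control mice at postnatal day 5, of the Taiwanese spinal muscular atrophy colony on a congenic FVB background, with genotype Smn+/-; SMN2tg/0, so both libraries come from animals with a single intact Smn allele and the human SMN2 transgene. RiboLace captures ribosomes engaged in translation on beads, and their nuclease-protected fragments of 25 to 35 nucleotides were sequenced. The labels give 2 biological replicates of this 1 group and no other genotype, age or treatment, and a series design text that speaks of a mouse in the singular; where the replicates do not come from separate animals, their spread is technical.

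Spectrins are long rods built from repeated helical bundles. An alpha and a beta chain lie side by side and join head to head with another such pair, and the resulting tetramers bridge short actin filaments under the plasma membrane. Adducins cap these filaments and recruit spectrin to them, while ankyrins tie the lattice to channels and adhesion molecules. In neurons the lattice lines the axon as a periodic scaffold. Ankyrin-B, from Ank2, is found along the axon, and ankyrin-G, from Ank3, organises the axon initial segment and the nodes of Ranvier.

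Replicate 1 held 343552 counts over all genes and replicate 2 held 120282, so that 1 count was worth 2.71 CPM, the count scaled to a common library size, in the first and 8.93 CPM in the second. Neuronal markers were present (8 of 8 with a mean of at least 10 counts, 6908 CPM in sum in replicate 1 and 8081 CPM in replicate 2), as were those of astrocytes and radial glia (6 of 6, 2003 and 2366 CPM) and of the oligodendrocyte lineage (6 of 6, 547 and 598 CPM). Red blood cell markers summed to 3816 and 4134 CPM, nearly all from globins, with 4 of 7 past that count. Microglial markers summed to 152 and 143 CPM and endothelial markers to 146 and 205 CPM, each with 1 of 4 past it. The share of each cell type in the signal of the 7 genes was not tested, and in whole tissue fewer cells of a type and less RNA per cell cannot be told apart. Total RNA was not analysed here, and footprints reflect both the amount of a messenger RNA and its translation.

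Each gene was represented by the transcript with the highest count over both libraries. Levels are footprint densities, in CPM per 1000 nucleotides of coding sequence, given as mean ± SD over the 2 replicates with the 95% exact Poisson interval of each count. That interval covers counting error only, since amplified reads carry no molecular identifiers and 1 molecule can give several.

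The spectrins gave the highest counts of the group. Sptbn1 (ENSMUSG00000020315), a widely expressed non-erythroid beta spectrin, had 224 counts in replicate 1 and 77 in replicate 2 on a coding sequence of 7092 nucleotides. Its density was 85.6 (interval 74.8 to 97.6) and 97.0 (76.5 to 121), or 91.3 ± 8.03 (SD, n = 2). Sptan1 (ENSMUSG00000057738), the non-erythroid alpha spectrin, had 214 and 74 counts on 7497 nucleotides, with densities of 77.4 (67.3 to 88.4) and 88.1 (69.2 to 111), or 82.7 ± 7.63 (SD, n = 2). The ranges of these 2 genes over the replicates overlapped. With 647 and 620 mean CPM they stood at rank 94 and 101 by counts among 4294 protein-coding genes, and at rank 1620 and 1745 by density, with coding sequences far above the median length of 1398 nucleotides. Among the 420 of these genes with at least 4000 coding nucleotides, where the median density was 14.4, they ranked 9 and 11 by density. Long genes reach the count filter at lower densities than short ones, so this ranking holds within the genes past the filter.

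Among the adducins, the alpha and beta genes stood near the spectrins on the highest isoforms. The gamma gene had a lower mean, but in replicate 2 the counting intervals of its ratios to the other adducins included 1, and with isoforms summed it stood at 134, above the beta gene at 77.1. Add1 (ENSMUSG00000029106), alpha adducin, which is widely expressed, had 57 and 19 counts on 1992 coding nucleotides and a density of 81.4 ± 5.39 (SD, n = 2), from 77.5 (58.7 to 100.5) and 85.2 (51.3 to 133). Add2 (ENSMUSG00000030000), beta adducin, typical of brain and red blood cells, had 58 and 20 counts on 2178 nucleotides and a density of 77.1 ± 6.95 (SD, n = 2), from 72.2 (54.8 to 93.3) and 82.0 (50.1 to 127). On the highest isoforms, alpha and beta adducin were not distinguishable at this depth. The ratio of their densities was 1.07 in replicate 1 (counting interval 0.732 to 1.58) and 1.04 in replicate 2 (0.524 to 2.05). With isoforms summed, Add1 stood at 478 against 77.1 for Add2, with 15 transcripts listed against 1. The treatment of isoforms thus also limits this comparison. Add3 (ENSMUSG00000025026), gamma adducin, had 33 and 14 counts on 2025 nucleotides and a density of 52.9 ± 12.4 (SD, n = 2), from 44.2 (30.4 to 62.0) and 61.7 (33.8 to 104). Of its 3 transcripts, Add3-201 and Add3-202 tied at 47 counts over both libraries and the longer was taken; the other gives 43.2 ± 7.54 (SD, n = 2).

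On the highest isoforms the ankyrins stood further apart than the relatives within the other 2 families; with isoforms summed, Add1 at 478 and Add2 at 77.1 were further apart. Ank2 (ENSMUSG00000032826) had 101 and 29 counts on 4861 coding nucleotides and a density of 54.8 ± 2.15 (SD, n = 2), from 56.3 (45.9 to 68.4) and 53.3 (35.7 to 76.5). Ank3 (ENSMUSG00000069601) had 54 and 24 counts on 8612 nucleotides and a density of 20.9 ± 5.58 (SD, n = 2), from 17.0 (12.8 to 22.2) and 24.9 (15.9 to 37.0). Ank2 was 3.31 times as dense as Ank3 in replicate 1 (counting interval 2.36 to 4.70) and 2.14 times in replicate 2 (1.20 to 3.84), so both intervals lay above 1. Against a median density of 62.3 over the 4294 coding genes, Ank2 ranked 2357 and Ank3 3689; within the 420 long genes Ank2 ranked 27 and Ank3 125. The coding lengths of both representatives are not multiples of 3 and these transcripts have no annotated 3' untranslated region, so they are incomplete models.

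**Figure D1:**
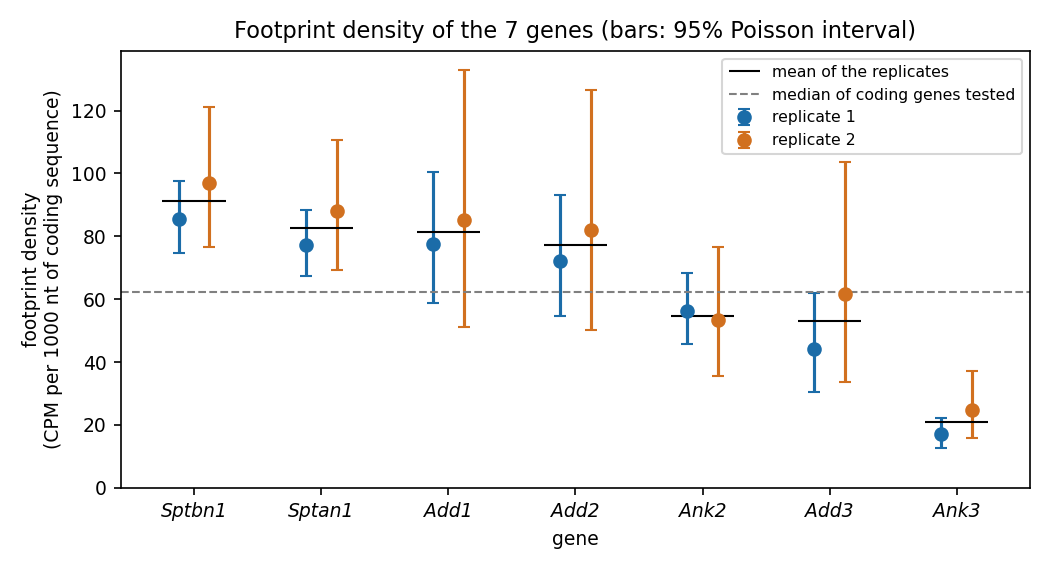
Footprint density of the 7 genes in CPM per 1000 nucleotides of coding sequence (vertical axis), by gene in order of the mean; points are the replicates, vertical bars 95% Poisson intervals of the count, short lines the mean, and the dashed line the median of 62.3 over coding genes. Sptbn1, Sptan1, Add1 and Add2 lie at means of 77.1 to 91.3, Ank2 and Add3 at 54.8 and 52.9, and Ank3 at 20.9.

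From high to low the densities on the highest isoforms thus ran Sptbn1, Sptan1, Add1, Add2, Ank2, Add3 and Ank3. Sptbn1 was highest, Add2 the fourth and Ank3 lowest in both replicates, while Sptan1 and Add1, and Ank2 and Add3, changed places. Of the 6 pairs of neighbours, 4 overlapped in their replicate values; Add2 with Ank2 and Add3 with Ank3 did not, and of these only Add3 with Ank3, in replicate 1, had Poisson intervals apart. Over all 21 pairs, the counting interval of the density ratio excluded 1 in both replicates for 8 pairs. Ank3 against each of the other 6 genes made up 6 of them, and Sptbn1 and Sptan1 against Ank2 the remaining 2. Sptbn1 was 1.52 times (1.20 to 1.94) and 1.82 times (1.17 to 2.89) as dense as Ank2, its textbook partner in axons. All these pairs are on the highest isoforms. With isoforms summed, Ank3 at 110 stood above Add2 at 77.1 and below the rest, an uncertainty that the counting intervals do not contain.

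These levels depend on how fragments that match several transcripts of a gene were counted, which is not given in the sources used here. For isoforms of 1 gene with the same coding length and nearly the same untranslated lengths, pairs of counts were compared. The measure was their squared difference over their sum. It would be 0 for identical sequences if every fragment were counted on both, and about 1 if each fell on either one independently. In replicate 1 its mean was 0.252 over 64 pairs in genes with 2 to 3 transcripts, 0.433 over 100 pairs with 4 to 6, 0.547 over 118 pairs with 7 to 11, and 0.919 over 77 pairs with 12 to 31. The 77 pairs of the last class came from 36 genes. Sequences were not compared, and isoforms of equal length with different exons can differ in counts under either scheme. These values therefore do not tell the schemes apart. The 7 genes differ in the number of transcripts listed, with 44 for Ank3, 26 for Ank2, 16 for Sptan1 and 15 for Add1. Sptbn1 has 8, Add3 has 3 and Add2 has 1. If a fragment was counted at most once per transcript and at least once per gene, the count of a gene lies between its highest isoform and the sum of its isoforms.

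Those bounds are wide for most of the group. Densities of the sums kept the library sizes of the highest isoforms, from 343552 and 120282 counts. Over all transcripts the totals were 729027 and 225075 counts. Scaled to those totals, every sum would be lower, Add2 included, with the order within a replicate unchanged. The summed isoforms of Sptan1 reached 1372 and 423 counts, a density of 500 instead of 82.7. Sptbn1 reached 347, Add1 478, Ank2 287, Add3 134 and Ank3 110, while Add2, with its single transcript, stayed at 77.1. The order of the sums is therefore Sptan1, Add1, Sptbn1, Ank2, Add3, Ank3 and Add2, and the position of Add2 is the one that moves most. Ank2 stood above Ank3 under either bound, with a ratio of 2.73 ± 0.829 on the highest isoforms and 2.62 ± 0.154 on the sums (each SD, n = 2), although the highest isoform of Ank2 lies below the sum of Ank3.

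**Figure D2:**
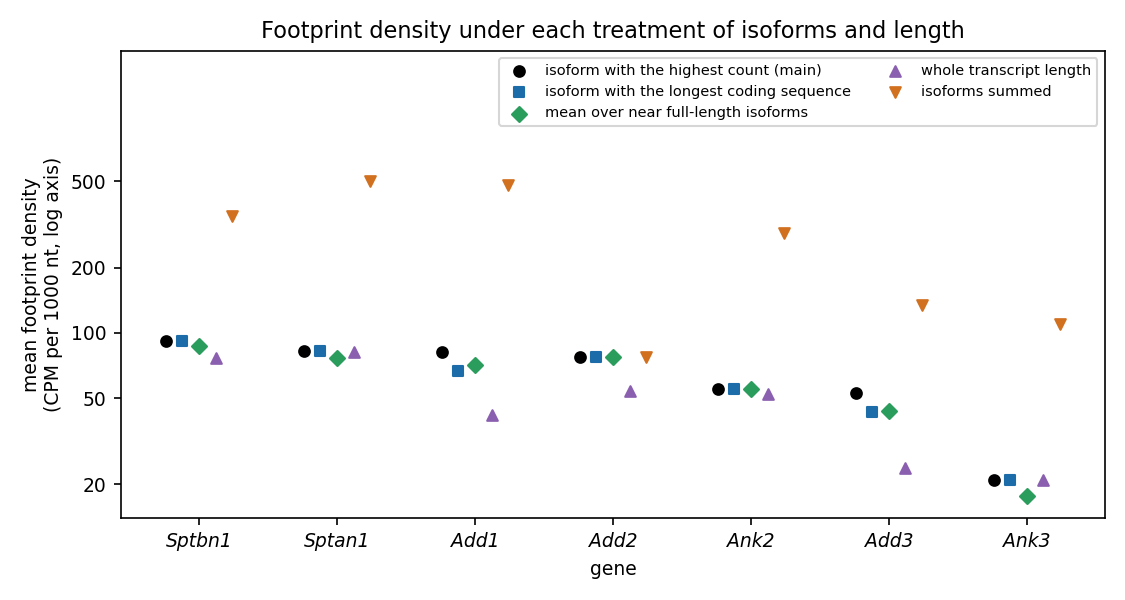
Mean footprint density of each gene in CPM per 1000 nucleotides on a log axis, under 5 treatments of isoforms and length, by marker. Summing the isoforms, on unchanged library sizes, lifts Sptan1 from 82.7 to 500 and leaves Add2 at 77.1. The mean over isoforms close to full length stays near the value of the highest isoform.

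The isoforms of the spectrins were alike in length and level. Sptan1 has 6 protein-coding isoforms of 7359 to 7497 coding nucleotides, with 191 to 223 counts in replicate 1 and 57 to 74 in replicate 2, and 1 of 657 nucleotides with 26 and 10. The isoform highest in replicate 1, Sptan1-003 with 223 counts, is not the representative, Sptan1-010, which had 74 against 60 in replicate 2. Sptbn1-001 and Sptbn1-201 share a coding length of 7092 nucleotides and had equal counts of 224 in replicate 1, and 77 and 76 in replicate 2. Their 5' untranslated regions differ by 222 nucleotides, which would hold 7.01 and 2.38 counts at the coding density. The extra count was 0 in replicate 1 and 1 in replicate 2. For 2 isoforms of Add3 with 2121 coding nucleotides, 186 extra nucleotides would hold 3.33 and 0.789 counts, and the extra count was -4 and -3. Added sequence cannot give a negative count, so these differences do not tell how many footprints the 5' regions held. The shorter Sptbn1-002, of 6465 coding nucleotides, had 185 and 56 counts and Sptbn1-007, of 6276, had 178 and 62, for densities of 77.4 and 82.5.

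The ankyrin isoforms fell into steps of coding length. The 2 longest isoforms of Ank3, of 7867 and 8612 coding nucleotides, had 49 and 54 counts in replicate 1 and 10 and 24 in replicate 2. The 8 isoforms of 5181 to 5958 nucleotides had 11 to 19 and 2 to 11 counts. The median density was 17.5 in the longest class and 6.35 in the middle class, and 4.16 over the 20 protein-coding isoforms of up to 3546 nucleotides. Ank2 and Ank3 are both known for neuron-specific giant isoforms made by the inclusion of a very large exon. Exons are not listed, so whether the long Ank3 class holds that exon cannot be read from these lengths. In Ank2 the steps were smaller: 54.8 for the 4861-nucleotide isoform, a median of 51.4 over 4 isoforms of 3117 to 3657, and 34.2 over 4 of 1257 to 1470. The longest Ank2 isoform listed, at 4861 coding nucleotides, is shorter than 10 of the Ank3 isoforms. It is an incomplete model, and footprints on parts of Ank2 that it lacks are not in its count.

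For Add1, the 5 isoforms of 1899 to 2208 coding nucleotides had 48 to 63 counts in replicate 1 and 10 to 19 in replicate 2. Add1-001 was highest in replicate 1, at 63, and lowest of these in replicate 2, at 10, and so the choice of isoform moved the library ratio of this gene. The mean over the 5 was 56.4 and 15.0 counts, a density of 71.2 ± 6.63 (SD, n = 2).

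**Figure D3:**
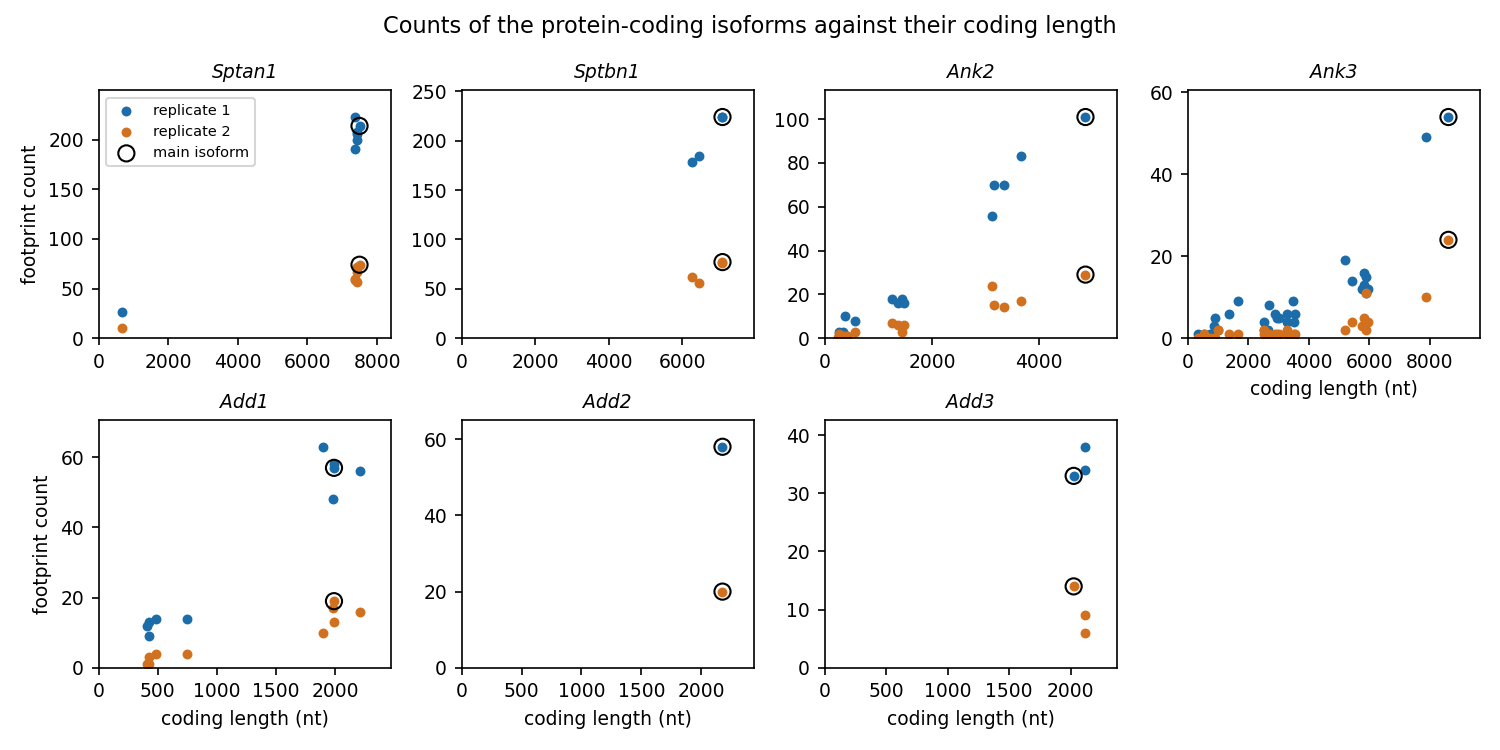
Footprint count (vertical axis) of each protein-coding isoform against its coding length in nucleotides, 1 panel per gene, by replicate; circles mark the representative isoform. Counts of Sptan1 cluster at 191 to 223 in replicate 1, and the 2 longest Ank3 isoforms, at 49 and 54, stand above the 8 of 5181 to 5958 nucleotides, at 11 to 19.

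Alpha and beta spectrin assemble in equal numbers, so Sptan1 was set beside Sptbn1. The density of Sptan1 was 0.904 times that of Sptbn1 in replicate 1 and 0.909 times in replicate 2, or 0.906 ± 0.00380 (SD, n = 2). The difference is within counting error, since the inverse ratio was 1.11 (0.913 to 1.34) in replicate 1 and 1.10 (0.789 to 1.53) in replicate 2. Per whole transcript length the ratio became 1.07, and with isoforms summed Sptan1 became 1.44 ± 0.0973 (SD, n = 2) times as dense, on the other side of 1, so these data do not fix which chain is higher. The small SD of the first ratio does not contain this uncertainty. Sptbn4, beta-IV spectrin of the axon initial segment and nodes, had 13 and 2 counts, and Sptb, the erythroid beta spectrin, 12 and 5, with densities of 7.12 ± 3.30 and 5.52 ± 1.23 (SD, n = 2). Sptbn5 had 0 counts in both libraries, which allows a share of up to 0.000873% of counts in replicate 1 and 0.00249% in replicate 2.

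Adducin forms mixed complexes of alpha with beta or gamma. Add1 stood at 0.667 and 0.593 times the summed density of Add2 and Add3, or 0.630 ± 0.0523 (SD, n = 2). With isoforms summed this became 2.26 ± 0.267 (SD, n = 2), with 15 transcripts listed for Add1 against 1 for Add2.

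Ank1, the ankyrin of red blood cells, had 6 counts in replicate 1 and 1 in replicate 2. The globins Hba-a1, Hba-a2, Hbb-bs and Hbb-bt stood at densities of 2157 to 2392, while Slc4a1, the anion exchanger that Ank1 binds, had 1 and 0 counts. Ank1, Sptb and Sptbn4 did not reach a mean of 10 counts and were not tested between the libraries.

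No member passed the test between the libraries. The 2-sided exact binomial test, with Benjamini-Hochberg adjustment over 5436 genes, called 0 of the 7 genes at an adjusted p under 0.05, where it called 4.14% of all genes tested and 0.956% of the protein-coding ones. At an unadjusted p under 0.05, which 9.60% of all genes reached, the number of members was 0 as well (1 with isoforms summed), and edgeR's exact test with a preset coefficient of variation of 0.2, which called 2.41% of all genes, called 0 members. This test compares these libraries, not conditions. On simulated libraries of the same depth, with counting error only, the exact binomial test called 48.1% of 181 genes changed 3-fold. Across genes past the filter, smaller differences in a single gene were thus often not detectable. The share was not computed at the counts of the 7 genes.

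On the log2(CPM + 1) scale, replicate 2 minus replicate 1, Sptbn1 stood at 0.18 with a counting SE of 0.19 and Sptan1 at 0.19 (SE 0.19). Add1 stood at 0.13 (SE 0.38), Add2 at 0.18 (SE 0.37) and Add3 at 0.48 (SE 0.46). Ank2 at -0.08 (SE 0.30) was the one value below 0, and Ank3 at 0.55 (SE 0.35) had the lowest adjusted exact binomial p of the group, 0.780. The median of the 7 was 0.18, beside 0.0041 over all genes tested and -0.016 over protein-coding genes. Scaling by library totals lowered the median of all genes to -0.20 and that of the 7 to -0.022, and left 2 of the 7 above 0, so the signs carry no direction. Together the 7 genes took up 0.216% of all gene counts in the first library, with a 95% Wilson interval of 0.201 to 0.232, and 0.214% in the second (0.189 to 0.241).

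**Figure D4:**
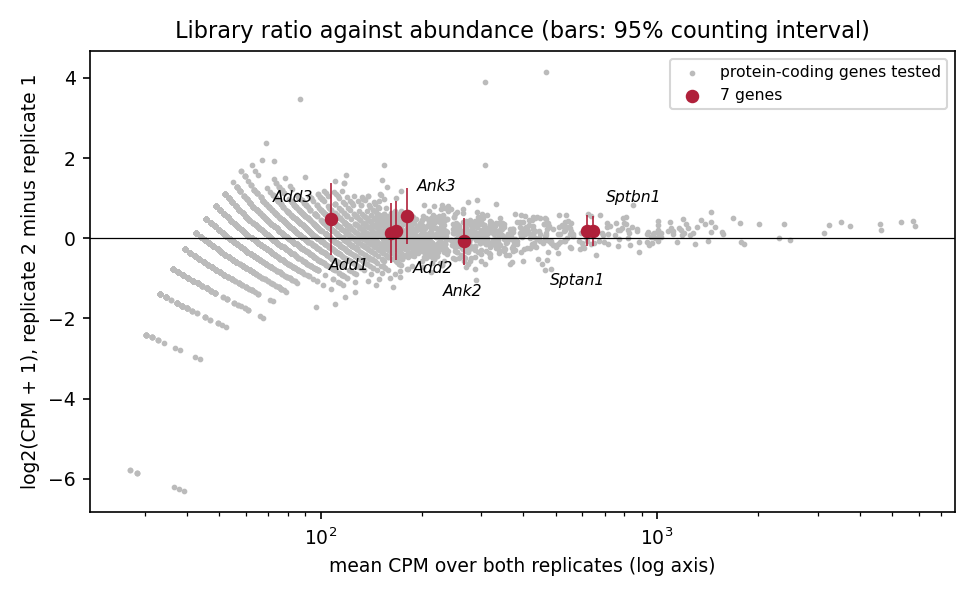
Difference of log2(CPM + 1), replicate 2 minus replicate 1 (vertical axis), against mean CPM on a log axis for the protein-coding genes tested (grey) and the 7 genes (red, bars 95% counting intervals). All 7 bars cross 0, with values from -0.08 for Ank2 to 0.55 for Ank3.

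Genes that work with this skeleton were read from lists of known partners. Of 12 proteins of the spectrin-actin junction and its filaments, 7 reached a mean of 10 counts and 0 were called by the exact binomial test, with 1 ratio above and 6 below 0 and a median of -0.28. Tmod2, the neuronal tropomodulin that caps the slow-growing end of actin filaments, was the densest of those tested, with 87 and 24 counts and a density of 213 ± 14.4 (SD, n = 2). It was followed by Tpm3, a tropomyosin, at 136 ± 23.2, and Dmtn, the actin bundler dematin, at 60.1 ± 8.21 (each SD, n = 2). Epb41l1 and Epb41l3, listed under older symbols, are relatives of the red cell protein that strengthens the bond between spectrin and actin; they stood at 54.5 and 42.1.

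Of 10 adhesion molecules and channels that bind ankyrin, 7 reached the count and 0 were called, with 2 ratios above 0, 5 below and a median of -0.28. Of the 4 adhesion molecules of the L1 family, 3 led. Chl1 had 266 and 93 counts and a density of 214 ± 21.4, L1cam 174 and 45 counts and 116 ± 13.1, and Nrcam 111 and 37 counts and 83.7 ± 5.55 (each SD, n = 2). On the highest isoforms these 3 were denser than either ankyrin in both replicates, although the summed isoforms of Ank2, at 287, exceed the single transcript of Chl1. Nfasc, the fourth, had 36 and 9 counts and stood at 25.2. Of the channels of the axon initial segment, Scn2a stood at 25.3, Scn3a at 17.8 and Scn8a at 4.47, the last from 13 and 2 counts.

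Of 11 other proteins with spectrin repeats, 5 reached the count and 0 were called, with 3 ratios above 0, 2 below and a median of 0.25. Actn4, an actinin that crosslinks actin, had the highest density of these, 39.0 ± 4.78, followed by Trio, a guanine nucleotide exchange factor, at 19.4 ± 2.37, and Actn1 at 16.8 ± 4.88 (each SD, n = 2). The giant linkers Macf1 and Dst stood at 8.79 and 4.72. On the highest isoforms, both spectrin members were denser than any of the 11 in each replicate.

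Capn2, a subunit of calpain, a protease that cuts spectrin, had 38 and 11 counts and a density of 47.8 ± 1.60 (SD, n = 2), and was not called. Cast, the calpain inhibitor, had 1 count in each library.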

How the data were processed

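The authors deposited 1 table of whole-number counts of ribosome-protected fragments per mouse transcript and replicate, not normalised, with lengths of each transcript and its regions, for 109463 transcripts. Per the submitters' processing notes, Trimmomatic 0.36, Bowtie2 2.2.6, SAMtools and GRCm38.p4 were used; the counting step, the treatment of fragments with several matches and the annotation release are not given in the sources used here, and no coordinates are printed. Columns were matched to replicates by number and by the words for control and RiboLace; the word early in their names is in no label.

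Symbols are transcript names without their suffix. Each gene was its transcript with the highest summed count, the longer in a tie. The isoform counts do not settle how fragments with several matches were counted, so isoform sums are given as an upper bound. Densities of these sums use the library sizes of the highest isoforms. CPM used gene totals and TMM factors from edgeR 4.0.16 (1.07 and 0.931) across genes averaging 10 counts or more. The exact binomial test used SciPy 1.17.1 and was tested on simulated data, where 200 genes were changed 3-fold and 181 of them passed the filter among 5521 genes. DESeq2 1.42.0 gave alternative size factors. Intervals of density ratios are Clopper-Pearson, and a count of 0 allows 3 counts. Genes named from the lists are the 3 densest among those averaging 10 counts or more and relatives of the spectrins and ankyrins; others named (Epb41l1, Epb41l3, Nfasc, Scn3a, Scn2a, Scn8a, Macf1, Dst, Cast and the erythroid markers) were chosen after their values were seen. Some planned results, among them the ratio of alpha spectrin to all beta spectrins together, are not reported here. All 85 list genes were in the table, 5 of them under older symbols. The members and lists were chosen with earlier results of these data known.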

Additional observations from a re-analysis of the deposited data

How the results depend on the processing

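No paired analysis was possible because the design has a single group. Summed isoforms and means over isoforms with at least 90% of the representative's coding length were, for the densities and ratios, chosen after the data were seen, as were the tie rule and the isoform and scaling alternatives of single library ratios. The count of 0 members differing between the libraries held under library totals, DESeq2 size factors, coding genes alone, no count filter, a mean of at least 50 counts (3 members tested), the preset coefficient of variation, isoforms summed and the longest coding isoform, where 0.501% to 9.82% of the genes tested were called. The Sptan1 to Sptbn1 ratio of 0.906 became 1.07 per transcript length, 1.44 with isoforms summed and 0.887 with the mean over near full-length isoforms. The adducin ratio of 0.630 became 0.555 on the longest coding isoform, 0.537 per transcript length and 2.26 with isoforms summed. Each replicate alone gave 0.904 to 0.909, 0.593 to 0.667 and, for Ank2 over Ank3, 2.14 to 3.31. Library ratios changed sign with library totals for Sptan1 (-0.018), Sptbn1 (-0.026), Add1 (-0.070) and Add2 (-0.022), since that scaling lowers every ratio by about 0.20; with isoforms summed for Ank3 (-0.0078), Add1 (-0.20) and Add3 (-0.070); on the longest coding isoform for Add1 (-0.083) and Add3 (-0.35); and with the mean over near full-length isoforms for Add1 (-0.17) and Add3 (-0.078). Apart from the library totals, the cause was not tested. Per whole transcript length, Add1 fell to 41.6 and Add3 to 23.9, as their 3' untranslated regions of 1835 and 2109 nucleotides add length. With 14 to 77 counts per gene in replicate 2, depth limits every level here.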

Other observations

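Retained-intron transcripts of these genes also carried counts, although they have no annotated coding sequence. In Sptan1, 8 of 9 such transcripts had a count, the highest 59 in replicate 1 and 11 in replicate 2. In Ank2, 9 of 10 had one, up to 36 and 9, and in Ank3, 9 of 12, up to 16 and 8. These transcripts can share exons with the coding isoforms, and the table does not separate shared from retained sequence, so the counts are given as values.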
